A study of Mus musculus with 7 samples.

Results

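The Notch genes examined here are the receptors Notch1, Notch2 and Notch3, the ligands Dll1, Dll3 and Jag1 and the target genes Hes1, Hes5, Hey1 and Heyl, a set of 10 named by symbol among the 19257 genes of the table. All 10 were found in it, and all 10 passed the filter of a mean normalized count of at least 10 that left 14782 genes for testing. RNA-Seq had been made from bulk tissue of endpoint mouse brain tumors, collected under a fluorescence microscope. In utero electroporation had delivered into progenitors along the lateral ventricle of CD-1 and C57BL/6 background embryos one construct with Cas9 and guides that target tumor suppressors including Nf1 and Trp53, together with a piggyBac transposon. The 3xCR group (3 tumors, replicates 2, 3 and 4, labelled as control) carried these alone with a GFP reporter, and the GPC6 group (4 tumors, replicates 1 to 4) received a further piggyBac construct for overexpression of GPC6, which is a cell-surface heparan sulfate proteoglycan. All 7 tumors thus shared the same targeted genes, and no brain without a tumor was among them. The ages and sexes of these animals are not given in the sources used here, and each tumor was 1 brain.

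Notch signaling passes between touching cells. A ligand of the Delta-like or Jagged family on one cell binds a Notch receptor on its neighbor, proteases cut the receptor, and the freed intracellular part joins the DNA-binding protein RBPJ to switch on repressors of the Hes and Hey families. In the developing brain these repressors hold neural progenitors and radial glia in an undifferentiated state and keep proneural genes low. Notch3 and Heyl are also known from the mural cells of blood vessels, and the Delta-like ligands from progenitors that are about to differentiate. Bulk tissue holds RNA of tumor cells, neurons, glia, vessels and immune cells together, so that fewer cells of a type and less RNA per cell cannot be told apart.

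Hes5 was the 1 target among the members with a promoter window in the table used (Hes1, Hey1 and Heyl had none), and the 250 bases before its transcription start are printed to show what the motif looks like there, beside a stretch of the promoter of the related target Hey2. Both come from RefSeq on GRCm38.p6, the assembly also called mm10. Capitals mark the RBPJ motif GTGGGAA, which was searched on both strands (TTCCCAC is the same motif on the other strand).
Hes5, chr4:154960673-154960922, plus strand: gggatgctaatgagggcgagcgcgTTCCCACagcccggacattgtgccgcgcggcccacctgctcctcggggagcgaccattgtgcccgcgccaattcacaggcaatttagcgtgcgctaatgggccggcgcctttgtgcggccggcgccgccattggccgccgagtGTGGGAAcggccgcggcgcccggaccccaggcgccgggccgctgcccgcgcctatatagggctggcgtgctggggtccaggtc
Hey2, chr10:30842914-30843013, minus strand: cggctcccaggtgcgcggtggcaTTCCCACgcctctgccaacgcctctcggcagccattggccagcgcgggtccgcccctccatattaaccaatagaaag
The Hes5 window held the motif at 2 places, the nearer one ending 77 bases before the start. Of the 32851 windows of 300 bases (250 before to 50 after a start) in the table, 6.38% held it at least once and 0.256% at least 2 times. Promoter windows were given for 7 of the 10 members (8 windows, 2 of them for Dll1), and Hes5 was the 1 member among these 7 with a match. Among the other pathway genes described below, 41 had a window and 6 held the motif, namely Lfng, Psen2, Aph1a, Spen, Hes7 and Hey2. Hey2 held it at 2 places, as Hes5 did, the one outside the printed stretch lying at its start. A match is a run of letters and no measured binding.

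On GRCm38 (GENCODE M21) the receptors were Notch1 at chr2:26457903-26516663 (minus strand), Notch2 at chr3:98013527-98150361 (plus strand), Notch3 at chr17:32120820-32166852 (minus strand). The ligands were Dll1 at chr17:15367354-15376872 (minus strand), Dll3 at chr7:28293553-28302238 (minus strand), Jag1 at chr2:137081456-137116644 (minus strand). The targets were Hes1 at chr16:30064384-30067796 (plus strand), Hes5 at chr4:154960923-154962371 (plus strand), Hey1 at chr3:8663359-8667256 (minus strand), Heyl at chr4:123233556-123249875 (plus strand).

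Libraries differed in ways that touch these values. They held between 7197692 and 18879762 reads on genes, and each member had at least 15 reads in every library. Gpc6, the check of the labels, had 126 to 226 normalized counts in the 3xCR libraries and 675, 263, 3434 and 5084 in GPC6 replicates 1 to 4, and the tumor labelled GPC6 replicate 2 thus had little more than the 3xCR tumors. GPC6 replicate 1 stood apart in its markers. It had 541 normalized counts of Avp, a neuropeptide of the hypothalamus, against at most 7.10 elsewhere, and 130 of the proliferation gene Mki67, against 950 to 1876 in the other 6 libraries. Of the 12 cell type lists written for these tissues, the list of microglia and macrophages was the 1 whose score did not overlap between the groups, being lower in GPC6 tumors (8 of 8 markers detected, summed normalized counts of 13122 to 23193 against 24783 to 47221 in 3xCR). Rn45s, the ribosomal RNA precursor, also separated the groups, with 260634 to 302419 normalized counts in 3xCR and 92933 to 154424 in GPC6 tumors. The part of either in the values below was not tested. In all that follows, values of single tumors are given in the order of replicates 2, 3 and 4 for 3xCR and 1, 2, 3 and 4 for GPC6.

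None of the 10 members differed between GPC6 and 3xCR tumors beyond the spread between tumors. With limma on log2(normalized count + 1), 0 of the 10 reached an adjusted p under 0.05 and 0 an unadjusted p under 0.05, where 0% and 4.66% of all 14782 genes did so (2.74% higher and 1.92% lower in GPC6). With the replicate number as a block the unadjusted count was again 0 of 10, against 4.59% of all genes. Replicate 1 exists in GPC6 alone, so this block in effect leaves that library out of the group comparison. With library weights the unadjusted count was 1 (Jag1), against 34.5%. DESeq2 and edgeR on the recovered reads also placed 0 of the 10 under an unadjusted p of 0.05, where 12.1% and 6.70% of all genes were. The groups overlapped in all 10, against 6.32% of all genes in which they did not. The mean log2 value was higher in GPC6 for 5 members and lower for 5, with a median log2 fold change of 0.11 (all genes: -0.02, with 48.3% positive). Adjusted p-values over all genes ranged from 0.734 to 0.993. The intervals were wide, so that a change of 1 log2 unit in either direction was within the 95% interval for Dll3 and Hes5 and outside it for Hey1.

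**Figure D1:**
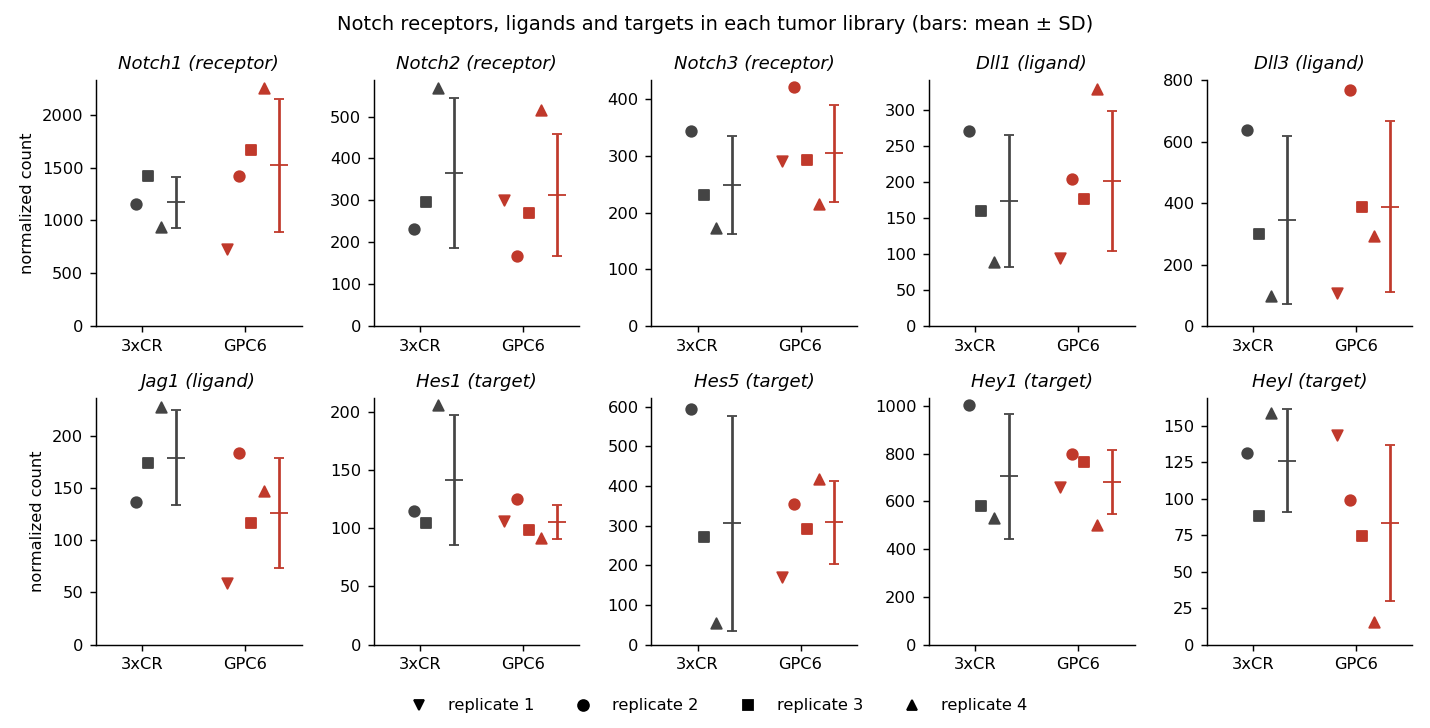
Normalized counts (vertical axes, from 0) of the 10 members in the 3 libraries of 3xCR and the 4 of GPC6 tumors, with marker shapes for the replicate number and bars for mean ± SD. The points of the 2 groups overlap in every panel, and Hes5 spans 53.9 to 594 within the 3xCR group alone.

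Notch1 was the most abundant receptor. The 3xCR tumors held 1155, 1425 and 941 normalized counts, the GPC6 tumors 734, 1426, 1672 and 2257. Both the lowest and the highest value belonged to the GPC6 group, whose mean was 1522 ± 631 (SD, n = 4) against 1174 ± 243 (SD, n = 3). The log2 fold change was 0.29 (standard error 0.38, 95% interval -0.59 to 1.16, limma adjusted p = 0.833). Without GPC6 replicate 1, the library of low Mki67, it was 0.60 with an unadjusted limma p of 0.0492 (3.17% of all genes were under 0.05 there) and an adjusted p of 0.905, and the groups then stood apart by less than 1 normalized count, between 1425 and 1426. In that setting 9.03% of all genes had groups without overlap. Without GPC6 replicates 1 and 2 together, Notch1 (0.75) and Heyl (-1.81) were the 2 members under an unadjusted p of 0.05, against 6.10% of all genes, and neither passed after adjustment (limma adjusted p = 0.767 for each). The groups then did not overlap for 3 members, Notch1, Hes1 and Heyl, against 23.6% of all genes. Without GPC6 replicate 4 the value of Notch1 was 0.06.

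Notch2 and Notch3, receptors with the same general build, varied in opposite directions over the tumors. Notch2 had 232, 297 and 568 normalized counts in the 3xCR tumors and 300, 166, 271 and 514 in the GPC6 tumors, highest in replicate 4 of both groups. Notch3 had 344, 232 and 173 in the 3xCR libraries and 291, 422, 294 and 215 in the GPC6 libraries, lowest in replicate 4 of both. For neither did the difference between the groups exceed the spread, with log2 fold changes of -0.23 (95% interval -1.26 to 0.80) for Notch2 and 0.31 (-0.45 to 1.07) for Notch3. For Notch2 the sign turned without 3xCR replicate 4 (0.14) or without GPC6 replicate 2 (0.03), and for Notch3 the value without 3xCR replicate 4 was 0.07.

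Dll1 and Dll3 are Delta-like ligands. Dll1 activates Notch on the neighboring cell, whereas Dll3 is held mostly inside the cell and acts on Notch of the same cell. Dll1 stood at 271, 160 and 88.4 normalized counts in the 3xCR tumors and at 94.3, 204, 177 and 329 in the GPC6 tumors. Dll3 had 639, 300 and 96.7 in 3xCR and 107, 768, 388 and 293 in GPC6. Both were low in 3xCR replicate 4 and GPC6 replicate 1, and Dll3 spanned 7.94 times between its lowest and highest library, more than the spread of 85.3% of all genes tested by the SD of log2 values. The log2 fold changes of 0.22 (95% interval -0.96 to 1.41) and 0.23 (-1.59 to 2.05) were small beside that spread, and both turned negative without 3xCR replicate 4 (-0.19 and -0.49).

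Jag1 is a ligand of the Jagged family. The 3xCR tumors had 136, 174 and 228 normalized counts of it, the GPC6 tumors 58.7, 184, 116 and 147. Means were 179 ± 46.0 (SD, n = 3) in 3xCR and 126 ± 52.9 (SD, n = 4) in GPC6 tumors, and the low value of GPC6 replicate 1 rested on 38 reads. The log2 fold change was -0.59 (standard error 0.43, 95% interval -1.57 to 0.40), with the smallest p of the 10 members (unadjusted p = 0.206, limma adjusted p = 0.734). Without GPC6 replicate 1 it was -0.26 (limma adjusted p = 0.910).

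Hes5 and Hes1 both encode repressors that RBPJ switches on, and Hes5 varied far more over the tumors (SD of log2 values 1.12 against 0.39, with 1.12 also for Heyl). Hes5 had 594, 271 and 53.9 normalized counts in the 3xCR tumors and 170, 354, 292 and 417 in the GPC6 tumors. The highest and the lowest library, 11.02 times apart, were both 3xCR tumors. The group means were nearly equal, 306 ± 272 (SD, n = 3) in 3xCR and 308 ± 105 (SD, n = 4) in GPC6. On the log2 scale, where the low library weighs more, the fold change was 0.50 (95% interval -1.23 to 2.24), which became -0.45 without 3xCR replicate 4.

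Hes1 had 115, 104 and 206 normalized counts in the 3xCR tumors and 107, 125, 98.5 and 91.6 in the GPC6 tumors. The library with the least Hes5, 3xCR replicate 4, was the one with the most Hes1. The log2 fold change of Hes1 was -0.36 (95% interval -1.11 to 0.38), and -0.06 without that library.

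Hey1 was the steadiest of the 10, with 1004, 579 and 530 normalized counts in 3xCR and 658, 800, 764 and 501 in GPC6 tumors, no more than 2.00 times between any of them. Its log2 fold change of -0.01 (95% interval -0.68 to 0.66) had no settled sign. Heyl had 131, 88.4 and 159 in 3xCR and 144, 98.8, 74.5 and 15.4 in GPC6 tumors. The low value of GPC6 replicate 4 came from 15 reads, and the other 6 libraries lay within 74.5 to 159. Heyl had the most negative fold change of the members (-0.93, standard error 0.72, 95% interval -2.59 to 0.74, limma adjusted p = 0.742), and without GPC6 replicate 4 it was -0.26.

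**Figure D2:**
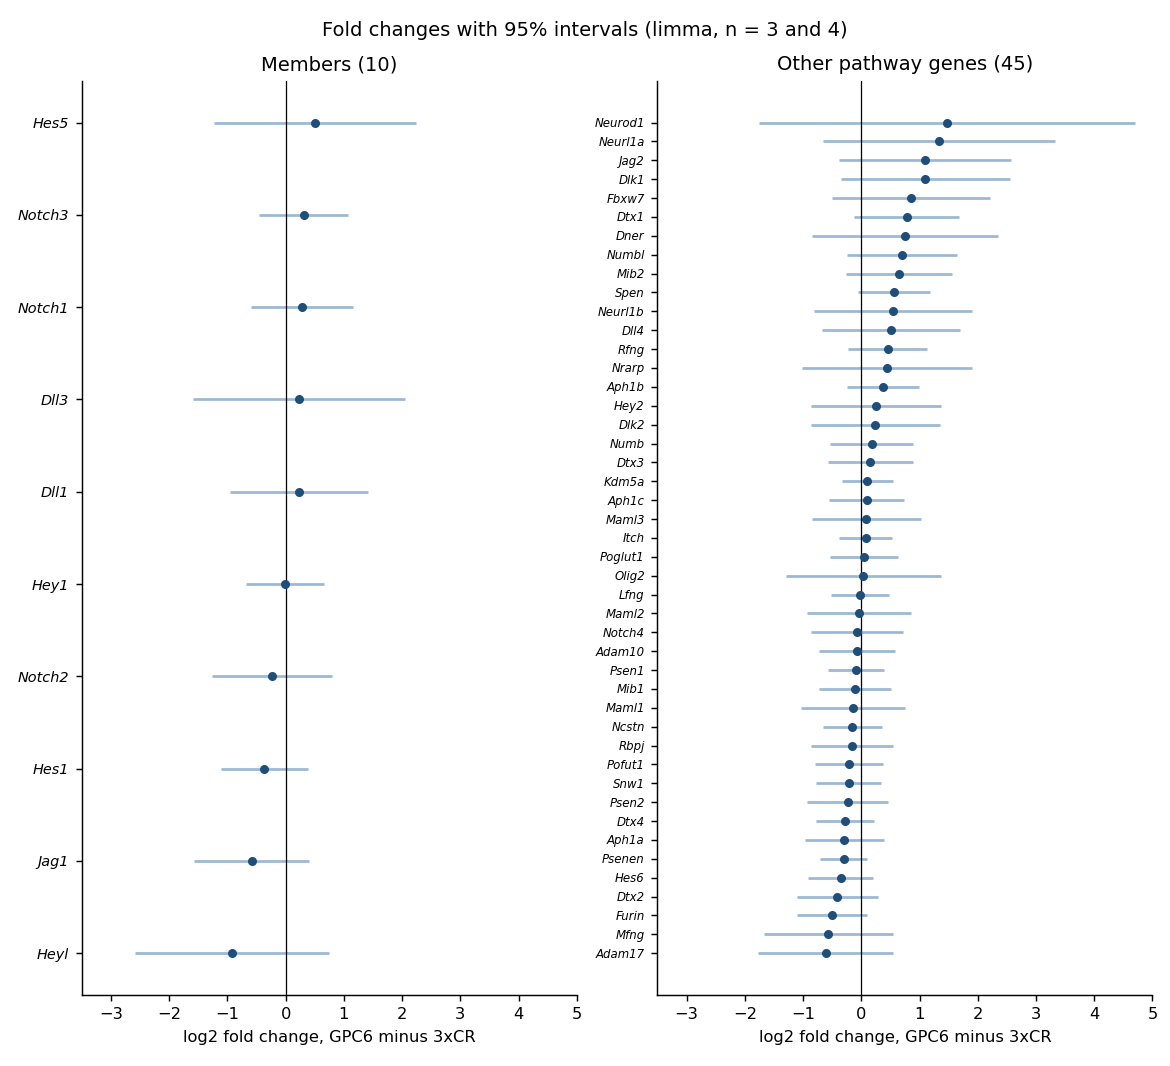
Log2 fold change, GPC6 minus 3xCR (horizontal axis, points), with its 95% interval from limma (lines) for the 10 members and for 45 other genes of the pathway. Every interval includes 0, the closest being that of Spen at 0.56 with a lower bound of -0.05.

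Levels of different genes were set side by side as normalized counts per kilobase of merged exons. Hes5 came first with a mean of 225 over the 7 libraries (range 39.5 to 436), followed by Hey1 at 212 (153 to 308), Dll3 at 130 (33.9 to 269) and Notch1 at 96.5 (51.6 to 159). Hes1 at 59.4, Dll1 at 44.8, Notch3 at 34.8, Notch2 at 31.1, Jag1 at 25.6 and Heyl at 19.9 followed. The ranges of all neighbors in this order overlapped, and each gene exceeded the next one in 4 to 6 of the 7 libraries. Among 14255 tested genes with a length, Hes5 and Hey1 stood at percentiles 81.9 and 80.7 of the level per kilobase and Heyl at 22.0. The order depended on the length in part, since with the longest transcript of each gene Hey1 (285) came before Hes5 (241) and Notch1 (145) before Dll3 (141), an alternative chosen after seeing the data.

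**Figure D3:**
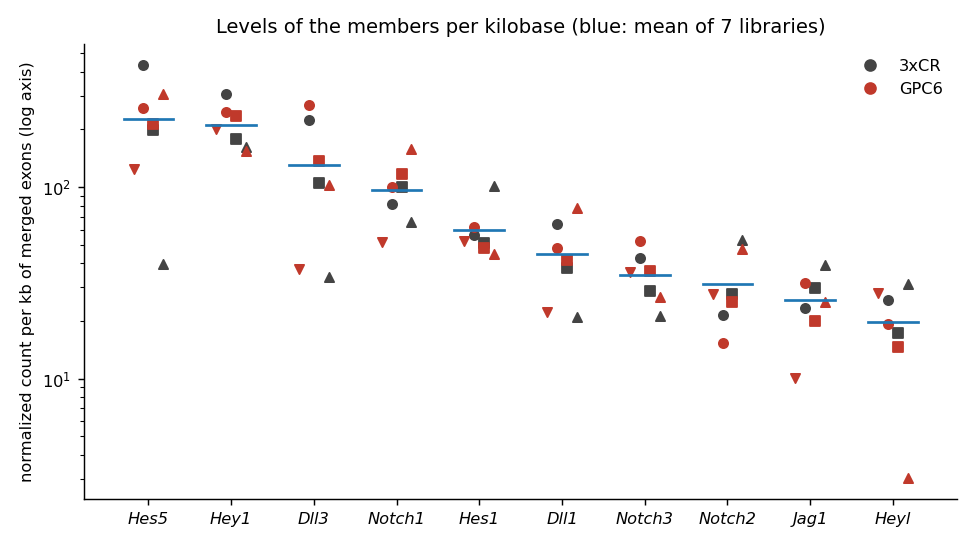
Normalized counts per kilobase of merged exons (vertical log axis) of the 10 members in order of their mean (blue line), 1 point per library with marker shapes for replicate numbers. Neighbors overlap throughout, from Hes5 with a mean of 225 down to Heyl with a mean of 19.9.

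Shares within a library do not depend on its scaling, and 4 of them were compared. Notch1 made up 51.9%, 59.6% and 42.5% of the summed level per kilobase of Notch1 to Notch4 in the 3xCR tumors and 38.7%, 55.5%, 61.9% and 65.8% in the GPC6 tumors. It was the largest of the 4 receptors in each of the 7 libraries. Hes5 made up 88.5%, 79.5% and 28.1% of the summed level per kilobase of Hes1 and Hes5 in 3xCR and 70.4%, 80.8%, 81.6% and 87.2% in GPC6 tumors, so 3xCR replicate 4 was the single library with more Hes1 than Hes5. Neither share passed the test between the groups (two-sided exact permutation tests, p = 0.629 for each). The share of Notch3 in the receptors was 19.3% ± 6.997 (SD, n = 3) in 3xCR and 21.5% ± 8.16 (SD, n = 4) in GPC6 tumors (two-sided exact permutation test, p = 0.800), and that of Dll3 in Dll1 and Dll3 was 71.0% ± 8.24 (SD, n = 3) and 70.2% ± 12.8 (SD, n = 4; exact p = 0.971). The adjusted p over the 4 exact tests was 0.971 for each, and 3 libraries against 4 cannot give a p below 0.0571.

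The members varied together in a few pairs. Over the 7 tumors 45 pairs were compared with exact permutation tests, after the values had been seen. Of these, 8 had an unadjusted p under 0.05 by Pearson's r and 3 an adjusted p under 0.05. The adjustment ran over these 45 pairs alone, and the share of all gene pairs under these thresholds is not given here. Notch2 and Notch3 ran in opposite directions (r = -0.95, exact p = 0.000992, and rho = -0.96, exact p = 0.00278, both with an adjusted p of 0.0417). Dll1 and Hes5 ran together (r = 0.88, exact p = 0.00258, and rho = 0.96, exact p = 0.00278, both adjusted 0.0417). Notch1 and Heyl ran in opposite directions (r = -0.85, exact p = 0.00278, adjusted 0.0417, and rho = -0.93, exact p = 0.00675, adjusted 0.0607). By rank, Notch2 and Dll3 also passed (rho = -0.96, exact p = 0.00278, adjusted 0.0417) but not by Pearson's r (-0.72, exact p = 0.0595, adjusted 0.256), which was -0.29 without the 2 farthest libraries.

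Leaving out the 2 libraries farthest from the median of the first gene gave r of -0.84, 0.80 and -0.99 for these 3 pairs, and the 7 fits without 1 library each gave -0.99 to -0.92, 0.85 to 0.92 and -0.92 to -0.83. Taken as deviations from the group means, so that the difference between the groups drops out, r was -0.96, 0.88 and -0.85. The groups hold 3 and 4 tumors, too few for a value within each. Among all other tested genes, 0.237% were at least as close to Notch2 as Notch3 was, and 0.318% as close to Notch3 as Notch2 was. For the pair of Dll1 and Hes5 the shares were 1.14% and 1.18%, and for Notch1 and Heyl 4.44% and 3.95%. Closeness here is not the root mean square difference used further below. Each share was larger than the exact p of its pair's r, so relations this close were more common among genes than these p-values state. Notch3 and Hey1 (r = 0.84, exact p = 0.0196, adjusted 0.177) and Dll3 and Hes5 (r = 0.84, exact p = 0.00972, adjusted 0.109) did not pass, and without the 2 farthest libraries r was 0.96 for the first and 0.46 for the second.

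**Figure D4:**
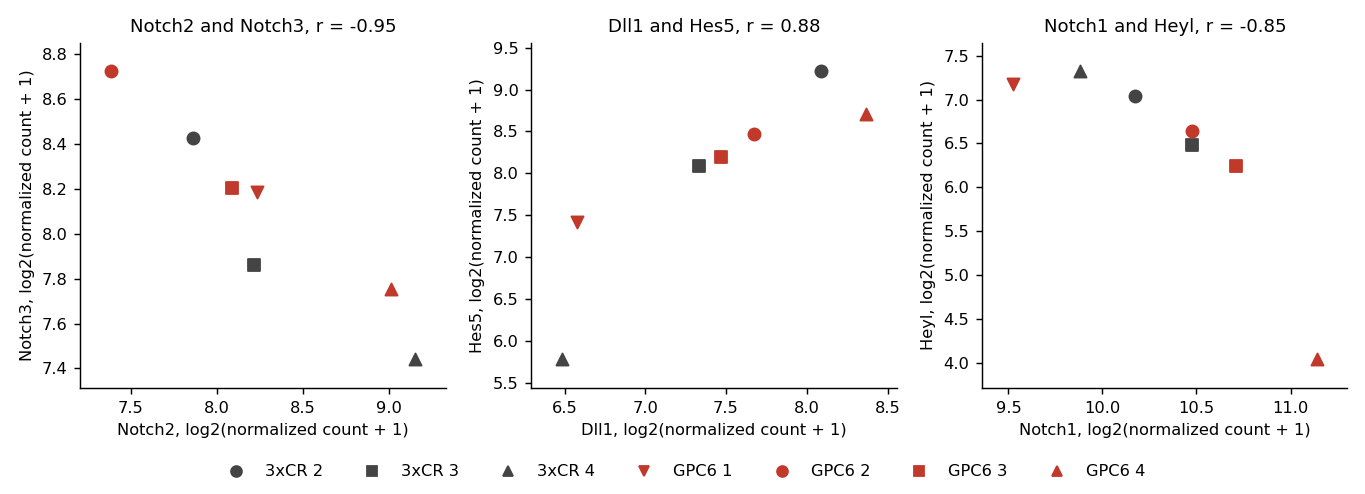
Log2(normalized count + 1) of the 3 pairs of members with an adjusted p under 0.05, 1 point per tumor, colored by group and shaped by replicate number. Libraries of both groups lie along each trend, with r of -0.95, 0.88 and -0.85.

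Each member was also set beside the 12 cell type lists, whose score is the mean over markers of the log2 value minus its mean in the 7 libraries. Of 120 relations, 0 had an adjusted p under 0.05 and 11 an unadjusted p under 0.05 (exact permutation tests). The share of all genes with such a relation to these lists is not given here. Jag1 and the pan-neuronal list came closest (r = -0.96, exact p = 0.000595, adjusted p = 0.0714, and rho = -0.96, exact p = 0.00278, adjusted 0.333), and r was -0.93 without the 2 farthest libraries. The 2 farthest libraries were those of the list's score here. The pan-neuronal score was 2.41 in GPC6 replicate 1, where Jag1 had 58.7 normalized counts, and -2.03 in 3xCR replicate 4, where it had 228, with 10 of 10 markers detected and summed normalized counts of 3843 to 10299 in 3xCR and 7345 to 65106 in GPC6 tumors. The list of hypothalamic neurons gave r = -0.96 with Jag1 as well (exact p = 0.00119, adjusted p = 0.0714, and rho = -0.89, exact p = 0.0123, adjusted 0.571), with -0.83 without the 2 farthest. Only 3 of its 5 markers passed the filter. Its summed normalized counts were 1011 in GPC6 replicate 1 and 12.1 to 27.5 in the rest, so elsewhere its score lay near the floor. Dll3 and the list of oligodendrocyte precursors followed (r = 0.92, exact p = 0.00675, adjusted p = 0.270, and rho = 0.86, exact p = 0.0238, adjusted 0.571), with r of 0.85 without the 2 farthest libraries. That score was 0.77 and 1.47 in replicate 2 of 3xCR and of GPC6, where Dll3 was highest. It was -0.83 and -1.12 in 3xCR replicate 4 and GPC6 replicate 1, where Dll3 was lowest. Jag1 and the list of microglia and macrophages had r = 0.88 (exact p = 0.0167, adjusted p = 0.341) and rho = 0.54, with r of 0.11 without the 2 farthest libraries. Notch1 and the proliferating cells had r = 0.80 (exact p = 0.0171, adjusted p = 0.341) and rho = 0.82, with r of 0.43 without the 2 farthest.

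The mural cell list, whose cells are known for Notch3 and Heyl, had all 12 markers detected and summed normalized counts of 3826 to 5347 in 3xCR and 2192 to 6118 in GPC6 tumors. Its score had r of -0.27 with Notch3 (exact p = 0.563) and 0.16 with Heyl (exact p = 0.801), and 0.85 with Jag1 (exact p = 0.0111, adjusted p = 0.333, and rho = 0.86, adjusted 0.571), which was 0.67 without the 2 farthest libraries. The list's most abundant marker was Cspg4, which the list of oligodendrocyte precursors holds as well. The astrocyte list (9 of 9 markers detected) had summed counts of 15560 to 62064 and 27845 to 66121, and that of oligodendrocyte precursors (7 of 7) 16143 to 54992 and 14191 to 79604, so glial markers of the labelled brain tissue were present in every library. The lists of endothelial cells, oligodendrocytes, neural stem cells and radial glia, proliferating cells, ependymal cells, choroid plexus, hypothalamic neurons and neurons also overlapped between the groups, and no marker of the 12 lists was at 0 in all libraries. What part these cells had in the members' values was not tested.

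**Figure D5:**
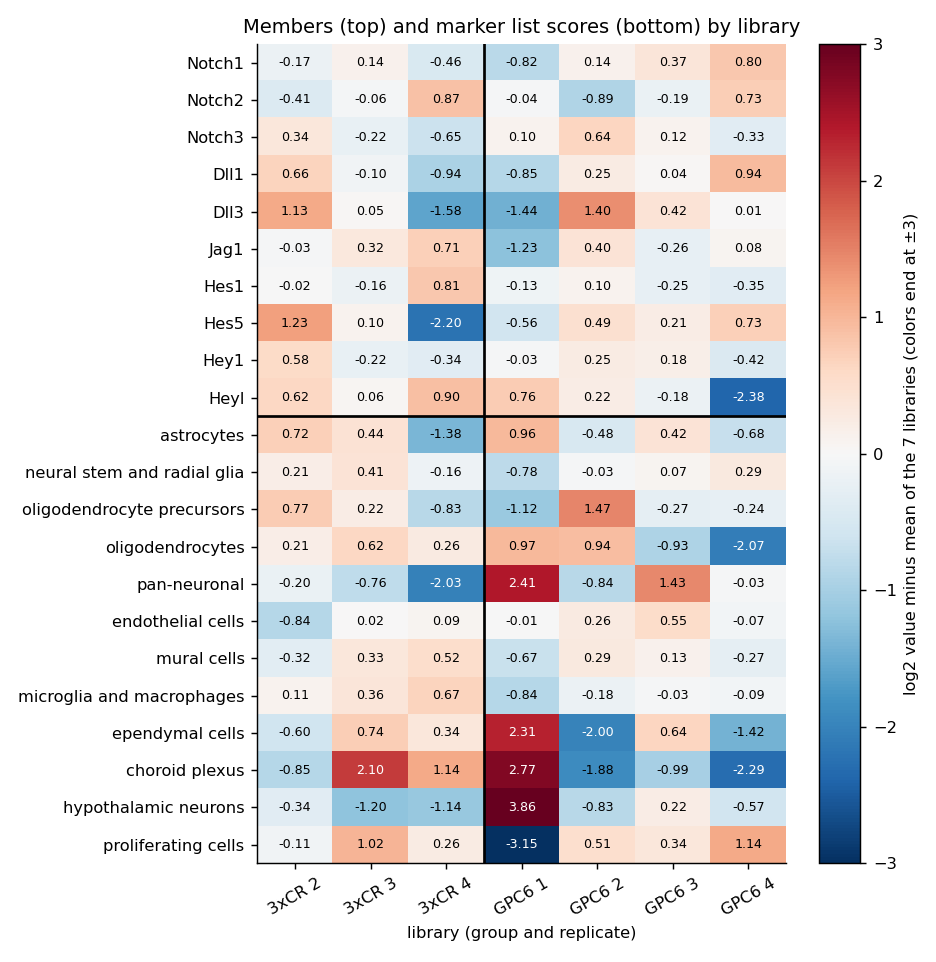
Log2 value minus the mean of the 7 libraries (numbers and colors) for the 10 members above the line and the scores of 12 marker lists below it, by library. Differences within a group, such as Hes5 at 1.23 and -2.20 in 3xCR replicates 2 and 4, are as large as those between groups, and GPC6 replicate 1 is low for Dll3 (-1.44), Jag1 (-1.23) and the proliferation list (-3.15).

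For each member the genes with the nearest pattern were found by the root mean square difference of the centered log2 values over the 7 libraries, among 12631 other genes with a mean of at least 50 normalized counts. Nearest to Notch1 was Scarb1, the receptor for high-density lipoprotein, at 0.13 log2 units, to Notch2 Lrig3 at 0.14, to Notch3 Zfp827 at 0.083 and to Jag1 Eif2s1, a subunit of translation initiation factor eIF2, at 0.074. Hey1 was nearest to Neto2, an auxiliary subunit of kainate receptors, at 0.071, and Hes1 to Csgalnact2, an enzyme of chondroitin sulfate synthesis, at 0.080. The members of large spread had more distant neighbors, Vit for Hes5 at 0.28, Npas3, a transcription factor, for Dll3 at 0.33 and Klc3, a kinesin light chain, for Heyl at 0.32. Dll1 was nearest to Sh3bp4 at 0.21, followed by Ddah1 and, at 0.25, by Maml2, a coactivator of the Notch complex. Other members ranked lower than these, the closest being Dll1 as number 21 for Hes5.

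The rest of the pathway was described with 50 genes in 7 lists, of which 49 were in the table (Atoh1 was not) and 45 passed the filter. Of the 45, 0 had an unadjusted p under 0.05 by limma, beside the 4.66% of all genes, 0 by edgeR, beside 6.70%, and 2 by DESeq2, beside 12.1%. Without GPC6 replicate 2 limma gave 5, beside 9.46% of all genes. The log2 fold change was positive for 25 and negative for 20, beside 48.3% positive of all genes, with a median of 0.07. The groups did not overlap in 1 of them, beside 6.32% of all genes. Psenen, a subunit of the gamma-secretase that frees the intracellular part of Notch, had 933, 914 and 1022 in 3xCR and 751, 870, 739 and 745 in GPC6 tumors, with all 4 below (-0.30, standard error 0.17, limma adjusted p = 0.730).

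Among the other receptor and ligands, 5 of 6 had a positive fold change, beside 48.3% of all genes. Jag2, the second Jagged ligand, had 36.7, 51.2 and 51.1 normalized counts in 3xCR and 270, 36.6, 130 and 75.1 in GPC6 tumors (1.10, 95% interval -0.38 to 2.58), highest in GPC6 replicate 1. Dner, a ligand of neurons and the most abundant of the list, had 344 to 1089 and 266 to 1887 (0.76, 95% interval -0.84 to 2.36), and Notch4, a receptor of endothelial cells, 91.0 to 124 and 66.9 to 145 (-0.07). Of the ubiquitin ligases and trafficking genes 9 of 12 were positive, from Neurl1a at 1.34 (95% interval -0.65 to 3.33, with 2241 normalized counts in GPC6 replicate 1) to Dtx2 at -0.41, and Dtx3 was the most abundant (0.16). GPC6 replicate 1 was the highest library for most of these 9 genes. Of the proteases 8 of 10 were negative, from Adam17 at -0.61 (95% interval -1.77 to 0.55) to Aph1b at 0.37, and Aph1a was the most abundant (-0.29).

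The glycosyltransferases, which tune ligand binding, ranged from Mfng at -0.57 to Rfng at 0.45. In the nuclear complex 3 of 7 were positive, with Spen highest at 0.56 (95% interval -0.05 to 1.17) and Snw1, the most abundant, lowest at -0.22. Of the other target genes, Nrarp had 734, 280 and 95.3 normalized counts in 3xCR and 400, 535, 328 and 259 in GPC6 tumors (0.44, 95% interval -1.01 to 1.901), with the same highest and lowest libraries as Hes5. The same list held Hes6 at -0.35, a Hes family gene whose value is not taken here as a readout of Notch. Hes3 and Hes7 were below the filter, with at most 3.29 and 9.27 normalized counts. Olig2, which marks the oligodendrocyte lineage and was the most abundant of the proneural list, had 1986 to 5088 and 1297 to 6658 (0.03), and Neurod1, at 0 in 1 library of each group and at most 44.8, had the largest fold change of that list (1.47, 95% interval -1.76 to 4.71).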

How the data were processed

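Bulk tumor RNA from 3 3xCR and 4 GPC6 brains was sequenced from stranded poly(A) libraries. Per the labels and the paper, the authors used STAR 2.5.0a for alignment to mm10, made gene counts and scaled each library by its size factor from DESeq2 1.20.0. The deposited signal is this normalized count, with no correction for length. The strand setting, the annotation and the rule for reads of several genes are not given in the sources used here, and exons of noncoding genes overlap those of Notch1, Notch2, Notch3, Dll1 and Hes5. Entries named by a date (25) were left out. All values (100%) lay within 0.01 of whole multiples of 1 read, which gave back the reads. A count of 0 allows 1.64 to 4.64 normalized counts, for counting error only.

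Groups and replicate numbers came from the labels. limma 3.58.1 in R 4.3.3 with a variance trend was fitted to log2(normalized count + 1) over genes with a mean of at least 10, two-sided, and p-values were adjusted after Benjamini and Hochberg. Fold changes are on that scale, which understates those of low genes. Alternatives were other pseudocounts, filters, scalings and variance settings, library weights, a replicate block, leaving out libraries, and edgeR 4.0.16, DESeq2 1.42.0 and voom on the recovered reads. Lengths and gene positions came from GENCODE M21 (GRCm38). The genes named were the members, pathway genes under the unadjusted threshold or without overlap, the most abundant and the extremes of each list, and the nearest patterns. The members and lists were chosen with earlier results of these data known. The relations between genes and the markers Avp and Mki67 were chosen after seeing values. Some genes of the pathway are not reported here.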

Additional observations from a re-analysis of the deposited data

Results flagged for a closer look

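The 4 GPC6 tumors were examined for single libraries that lie far from the rest, by Dixon's criterion for 4 samples at the 95% level, on the log2 scale for genes. Of 72 quantities looked at, 2 met it, where chance gives about 3.60, and neither was a member. Aph1c, a gamma-secretase subunit, had 182 normalized counts in GPC6 replicate 1, with 116 to 117 in the remaining GPC6 tumors and 119 to 125 in 3xCR. Psenen had 870 in GPC6 replicate 2, with 739 to 751 and 914 to 1022.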

How the results depend on the processing

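Over 21 alternatives for each of the 10 members (210 values), 197 kept the sign reported and 13 turned it, and 0 reached an adjusted p under 0.05. DESeq2 gave no adjusted p for Dll1, Jag1, Hes1 and Heyl, whose unadjusted p with it were above 0.05. The filters and variance settings cannot change a member's fold change, so the signs kept there were fixed in advance. The replicate block repeats the fold changes found without GPC6 replicate 1 and adds no separate check of the sign. The sign held in all 21 for Notch1, Notch3, Jag1, Hes1 and Heyl. It turned without 3xCR replicate 4 for Notch2 (0.14), Dll1 (-0.19), Dll3 (-0.49) and Hes5 (-0.45), without GPC6 replicate 2 for Notch2 (0.03) and Dll3 (-0.20), without GPC6 replicate 4 for Dll1 (-0.06) and Hey1 (0.13), without 3xCR replicate 2 for Hey1 (0.27), without GPC6 replicates 1 and 2 together for Notch2 (0.14), with edgeR for Hes5 (-0.0099), and with an equal total (0.035) or library weights (0.29) for Hey1. With 1 library left out, log2 fold changes ran from -0.51 to 0.14 for Notch2, -0.19 to 0.62 for Dll1, -0.49 to 0.86 for Dll3, -0.45 to 1.27 for Hes5, -0.19 to 0.27 for Hey1, 0.06 to 0.60 for Notch1, 0.07 to 0.57 for Notch3, -0.80 to -0.26 for Jag1, -0.55 to -0.06 for Hes1 and -1.31 to -0.26 for Heyl. Members at an unadjusted p under 0.05 numbered 1 with library weights (Jag1) and 2 without GPC6 replicates 1 and 2 together (Notch1 and Heyl), and 0 to 1 when 1 library was left out (Notch1 without GPC6 replicate 1). Members whose groups do not overlap numbered 3 without GPC6 replicates 1 and 2 together (23.6% of all genes) and 0 to 1 with 1 library left out (9.03% of all genes without GPC6 replicate 1). Over all genes, library weights gave 1962 and DESeq2 9 genes at an adjusted p under 0.05, and every other alternative 0. Of the 45 other pathway genes, 12 had an unadjusted p under 0.05 with library weights (34.5% of all genes), 2 with DESeq2 (12.1%), 2 without GPC6 replicates 1 and 2 together (6.10%) and 0 to 5 with 1 library left out, the 5 being without GPC6 replicate 2 (9.46%). At that threshold limma gave 689, edgeR 991 and DESeq2 1793 genes.

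Same-numbered tumors of the 2 groups correlated in their deviations by -0.19, 0.12 and 0.30, so the numbers were not taken as pairs. With the replicate block 678 genes had an unadjusted p under 0.05 and 0 an adjusted one, and 0 members had either. Fold changes and share differences with this block equal those without GPC6 replicate 1, which has no 3xCR tumor of its number. Differences in shares, in percentage points, ranged with 1 library left out from -0.61 to 6.11 for Notch3, -0.29 to 9.71 for Notch1, -4.01 to 26.2 for Hes5 and -5.70 to 3.62 for Dll3, and the replicate block gave 1.71 for Dll3. The cause was not tested for any of these. The shallowest library held 7197692 reads, with 38 to 475 reads on each member.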
